A study of Mus musculus with 12 samples.

Results

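The histone genes of the Hist1, Hist2, Hist3 and Hist4 clusters were followed in mouse T-ALL, the acute lymphoblastic leukaemia that arises from T cell precursors. They were taken by symbol, as every row whose name starts with Hist1h, Hist2h, Hist3h or Hist4h, which gave 67 of the 23174 rows in each of 2 tables, with 65 different symbols. A member was described where its mean over the 6 samples of a table was at least 1 FPKM (mapped fragments scaled to transcript length and to the size of the library). This left 49 members among the 10245 rows kept in the table of treated cells and 50 among the 10741 rows kept in the table of tumours. The same 49 were kept in both, and Hist2h3c1 was kept in the tumours alone. By class, 4 of 5 H1 rows, 10 of 18 H2A rows, 14 of 18 H2B rows, 9 of 12 H3 rows and 11 of 13 H4 rows were kept in the treated cells. One further row joined the symbols Hist1h1e (H1) and Hist1h2be (H2B), which cannot be told apart there. In the treated cells the nearest rows under the minimum were Hist2h3c1 (mean FPKM 0.613) and Hist1h2ai (0.482), and the nearest above it were Hist1h4a (1.39) and Hist4h4 (2.75).

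Clustered histone genes are transcribed mainly in S phase, when newly copied DNA has to be packaged. H2A, H2B, H3 and H4 build the core of the nucleosome, and the linker histone H1 binds the DNA where it enters and leaves that core. Unlike other mRNAs, those of the clustered genes usually carry no poly-A tail: they end just after a short stem-loop, which the stem-loop binding protein SLBP holds through processing, translation and decay. Some clustered genes can also make a longer mRNA with a tail. The libraries here were prepared from RNA selected by its poly-A tail, so the FPKM values describe what passed that selection and not all histone mRNA of the cells.

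All samples were T-ALL cells of the C57BL/6 strain that carried Notch1-deltaE, an active Notch1 that lacks most of the part outside the cell. Ex vivo, 3 samples received the CXCR4 inhibitor AMD3100 and 3 received vehicle, and both groups bore the replicate numbers 1 to 3. In the other experiment, 3 primary tumours of Cxcr4+/+ Notch1-deltaE+ genotype (tumours 1, 2 and 4) were set against 3 of Cxcr4-/- Notch1-deltaE+ genotype (tumours 5, 7 and 8). Cxcr4 encodes the receptor of the chemokine CXCL12, which stromal cells release. The growth protocol, given alike for all 12 samples, describes spleen cells on OP9 stromal feeder cells, which had been stopped from dividing with mitomycin C, and IL-7, a T cell growth factor, at 5 ng/ml. The labels do not give the dose and duration of AMD3100, the ages of the mice, or how and in which cells Cxcr4 was deleted. They do not say which samples shared an animal or a culture, so p-values measure the spread between these samples only, which may be technical.

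The labels were checked first. Cxcr4 stood at 241, 155 and 206 FPKM in wild-type tumours 1, 2 and 4 and at 23.2, 78.9 and 21.9 FPKM in knockout tumours 5, 7 and 8, so the groups did not overlap and no knockout tumour was at 0. The 12 T cell markers summed to 4506 to 5374 FPKM ex vivo and to 1678 to 6611 FPKM in the tumours. Ex vivo, markers of B cells and erythroid cells summed to at most 1.12 FPKM, those of neutrophils were at 0, and those of macrophages, nearly all Cd68, summed to 1.53 to 1.89 FPKM with vehicle and 2.41 to 2.88 FPKM with AMD3100. The samples numbered 3 stood apart in both ex vivo groups: Cd8a was at 233 and 163 FPKM there and at most 21.0 FPKM in the other four. The 8 stromal markers, mostly Pdgfrb, summed to 152 to 199 FPKM in samples 1 and 2 of both groups and to 10.7 and 21.2 FPKM in those numbered 3, with Dcn and Lum at 0. In the tumours 6 of these 8 were at 0 throughout. The libraries held 444803 to 480468 FPKM in sum ex vivo, and the tumours 368118 to 581159. Read totals are unknown, but steps between low values gave a depth of 0.757 to 1 in the vehicle libraries and 1.06 to 1.25 in the AMD3100 libraries, relative to vehicle 1. Same-numbered vehicle and AMD3100 samples deviated together from their group means, so the ex vivo comparison is given both without and with the replicate number as a block (unpaired and paired).

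After AMD3100 the histone genes of all 5 classes stood lower. The summed FPKM of the 49 members was 5190, 5740 and 6103 in the vehicle samples and 3300, 3370 and 3152 in the AMD3100 samples, 42.3% lower on average. Histone genes made up 1.12% to 1.29% of the summed FPKM with vehicle and 0.695% to 0.758% with AMD3100. The groups did not overlap in either measure. Among single members 47 of 49 had a log2 change below 0, with a median of -0.60 and a range of -1.40 to 0.71, against a median of 0.00 over all 10245 rows. Changes are differences of log2(FPKM + 1), which understates those of low genes.

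Without pairing, limma called 2 members lower and none higher at an adjusted p under 0.05, where it called 0.0781% of all rows lower and 0.0488% higher. At an unadjusted p under 0.05 there were 34 members lower and 1 higher, against 12.0% and 9.56% of all rows. With same-numbered samples paired, limma called 33 members lower (67.3%) and 1 higher, against 9.92% of all rows lower and 9.96% higher. AMD3100 samples were lower than their partner in all 3 pairs for 38 members (29.4% of all rows) and higher in all 3 for 1 member (30.8% of all rows). All 3 AMD3100 samples lay below all 3 vehicle samples for 33 members and above them for 1, which held for 15.8% and 13.1% of all rows. The median member changed by -0.52, -0.58 and -0.68 in pairs 1, 2 and 3. Stromal markers were lowest in pair 3, and the part of feeder cells in the change was not tested. Adjusted for transcript length within each pair, 32 members were lower and 1 higher, against 9.7% and 7.31% of the rows with a length, and their median was -0.56.

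The paired count depends on all 3 pairs being there. Without pair 1 or without pair 2 it was 0 of 49, where 4 and 6 of all rows were called, and without pair 3 it was 16 of 49, where 559 of all rows were called. The median change of the members moved little, between -0.66 and -0.50 over these 3 fits. The H4 median went from -0.54 to -0.26 without pair 1. Libraries of the AMD3100 group were also the deeper ones, and the part of depth in the fall was not tested. In bulk samples, fewer cells in S phase and less histone RNA per cell cannot be told apart.

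**Figure D1:**
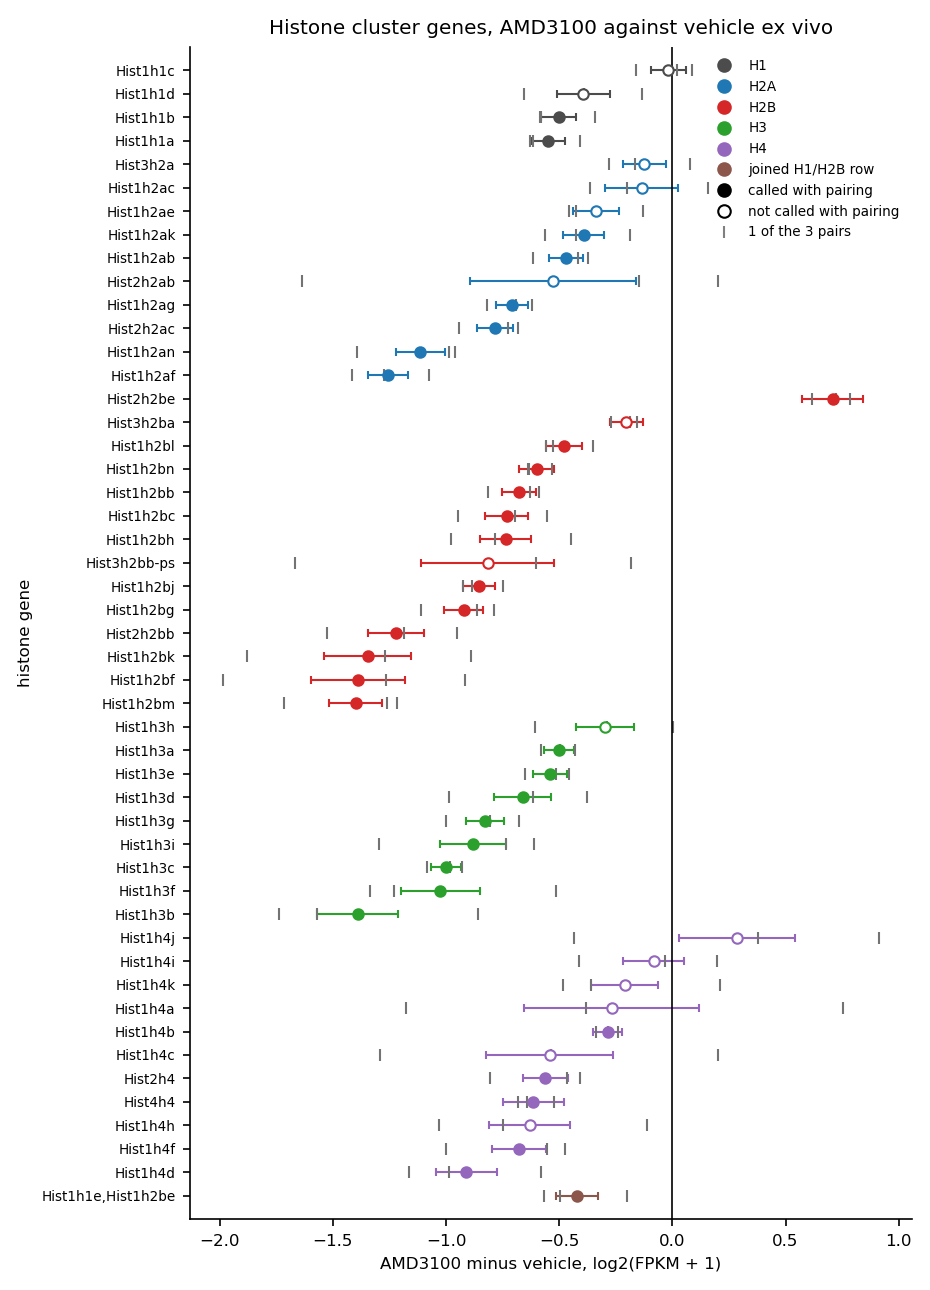
Change of each of the 49 histone rows ex vivo, as AMD3100 minus vehicle on the log2(FPKM + 1) scale, ordered by class; circles are means with the paired standard error, filled where limma called the gene with pairing, and ticks are the single pairs. Most genes lie left of 0, and Hist2h2be is the 1 filled circle to the right.

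By class, the median log2 change was -0.45 for H1, -0.50 for H2A, -0.78 for H2B, -0.83 for H3 and -0.54 for H4. With pairing, limma called lower 2 of 4 H1, 6 of 10 H2A, 11 of 14 H2B, 8 of 9 H3 and 5 of 11 H4 genes, and the joined row as well. Of all rows 9.92% were called lower with pairing. No test was made between classes. Summed over a class, H2B showed the largest difference, from 1349 ± 222 to 642 ± 24.4 FPKM (SD, n = 3), or 52.4%. H2A went from 1004 ± 58.8 to 569.9 ± 19.1 FPKM, H4 from 1850 ± 132 to 1104 ± 112 FPKM and H3 from 1024 ± 97.3 to 625 ± 53.1 FPKM. H1 showed the smallest, from 357 ± 36.3 to 263 ± 15.7 FPKM, or 26.3%. In each class the highest AMD3100 sample lay below the lowest vehicle sample. Such sums are weighted to the most abundant genes and do not describe every gene of a class. Hist1h4d (H4) alone went from 1184 to 631 FPKM, Hist1h2af (H2A) from 421 to 174 and Hist2h2bb (H2B) from 627 to 267. H1 genes held 5.88% to 6.84% of the summed histone FPKM with vehicle and 7.84% to 8.26% with AMD3100, while H2B genes held 21.1% to 25.2% and 18.6% to 20.7%. The share of H4 genes overlapped between groups, at 31.7% to 33.5% with vehicle and 31.6% to 37.0% with AMD3100.

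**Figure D2:**
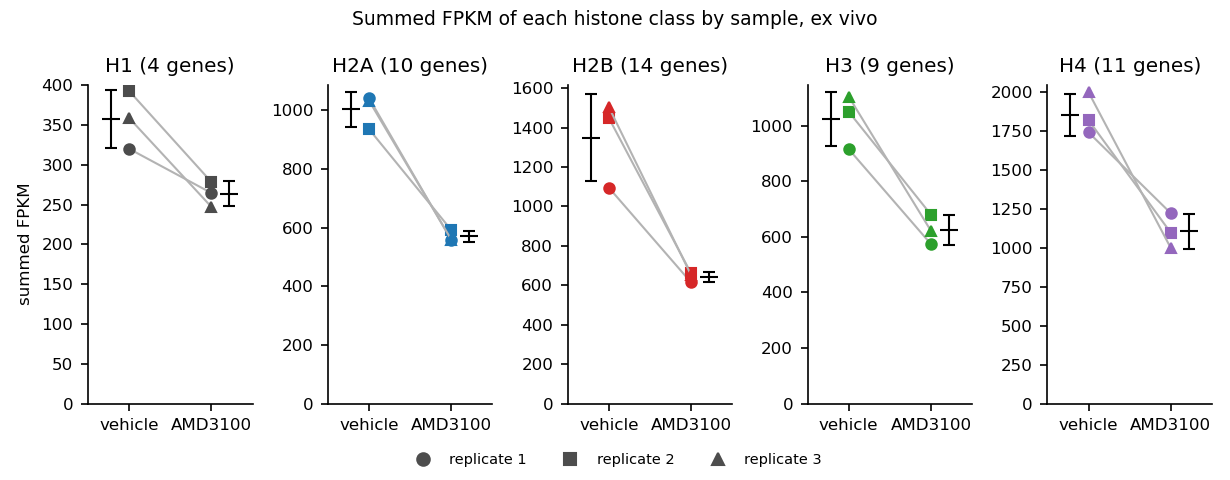
Summed FPKM of the kept genes of each histone class in each ex vivo sample, from 0; lines join samples with the same replicate number, and bars are the mean and SD of 3 samples. In every class the 3 AMD3100 sums lie below the 3 vehicle sums, from H2B (52.4% lower) to H1 (26.3% lower).

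Among the H2B genes Hist1h2bm had the lowest log2 change of all 49 members. Its FPKM was 95.9, 106 and 118 with vehicle and 40.7, 31.4 and 48.8 with AMD3100, a log2 change of -1.40 (paired SE 0.12, paired adjusted p = 0.019 in limma). The 3 treated samples all lay far below the 3 vehicle samples. Hist1h2bf behaved alike, at 33.0, 34.6 and 46.7 FPKM with vehicle and 17.0, 13.8 and 11.1 FPKM with AMD3100, a log2 change of -1.39. The most abundant H2B gene was Hist2h2bb, which fell from 627 ± 89.5 to 267 ± 17.1 FPKM. Hist1h2bj, 1 of the 2 genes also called without pairing, had nearly equal replicates: 48.7, 48.5 and 49.8 FPKM with vehicle against 25.2, 25.8 and 29.3 FPKM with AMD3100. Its log2 change was -0.85 (SE 0.09, adjusted p = 0.049 unpaired in limma). Hist1h2bk varied widely within the vehicle group, from 50.3 to 181 FPKM, and its groups overlapped, with 54.6 FPKM in AMD3100 replicate 3. Yet it was lower in every pair and called with pairing, at a log2 change of -1.35.

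Hist2h2be was the exception among the H2B genes and among all 49 members. It was a low gene, at 1.38, 2.48 and 1.90 FPKM with vehicle, and rose to 2.93, 4.34 and 4.01 FPKM with AMD3100. All 3 treated samples were above all 3 vehicle samples, with a log2 change of 0.71 (paired SE 0.13, paired adjusted p = 0.030 in limma; unpaired adjusted p = 0.161). The other H2B genes not called lower with pairing were Hist3h2ba and the pseudogene Hist3h2bb-ps, at log2 changes of -0.20 and -0.82.

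Among the H3 genes Hist1h3c had the smallest adjusted p of the members. It stood at 128, 112 and 127 FPKM with vehicle and at 59.9, 58.5 and 63.8 FPKM with AMD3100, a log2 change of -0.999 (SE 0.09, unpaired adjusted p = 0.038 in limma). The 3 pairs were close to each other, at -1.09, -0.93 and -0.98. Hist1h3b fell from 81.2 ± 13.9 to 30.3 ± 4.70 FPKM (log2 change -1.39) and Hist1h3f from 45.4 ± 9.18 to 21.6 ± 2.27 FPKM (-1.03). The most abundant H3 gene, Hist1h3e, fell less, from 422 ± 53.1 to 290.4 ± 42.9 FPKM (-0.54). Hist1h3h alone was not called, at 32.8, 31.3 and 38.9 FPKM with vehicle and 21.2, 25.5 and 38.9 FPKM with AMD3100, lower in 2 of 3 pairs.

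Among the H2A genes Hist1h2af was both the most abundant and the one with the lowest log2 change. It stood at 482, 323 and 457 FPKM with vehicle and at 198, 153 and 171 FPKM with AMD3100, a log2 change of -1.26 (paired SE 0.09, paired adjusted p = 0.017 in limma). Hist1h2an, at 66.6 ± 8.65 and 30.9 ± 8.57 FPKM, followed with -1.11. At the other end Hist3h2a and Hist1h2ac had log2 changes of -0.12 and -0.14, were lower in 2 of 3 pairs and were not called. Hist2h2ab was too uneven to read, from 5.89 to 13.8 FPKM with vehicle and from 1.83 to 12.4 FPKM with AMD3100.

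H4 held the most abundant histone gene of the data and also the most genes without a call. Hist1h4d was at 1098, 1127 and 1326 FPKM with vehicle and at 735, 569 and 591 FPKM with AMD3100, a log2 change of -0.91 (paired SE 0.13, paired adjusted p = 0.020 in limma). Hist2h4 fell from 301 ± 29.9 to 204 ± 25.2 FPKM. Hist1h4i, at 17.9 ± 4.71 and 16.6 ± 2.93 FPKM, and Hist1h4j, at 25.2 ± 7.40 and 30.7 ± 8.14 FPKM, showed no difference beyond the spread of their samples. Hist1h4a, Hist1h4c, Hist1h4h and Hist1h4k were not called either, with log2 changes of -0.27, -0.54, -0.63 and -0.21. All H4 genes encode almost the same protein, so these differences lie between gene copies.

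Of the 4 H1 genes 2 fell with pairing: Hist1h1a from 123 ± 19.1 to 83.3 ± 6.83 FPKM and Hist1h1b from 156 ± 13.2 to 110 ± 7.48 FPKM. Hist1h1c did not differ, at 47.2, 50.0 and 50.4 FPKM with vehicle and 50.2, 50.6 and 45.0 FPKM with AMD3100. Its log2 change was -0.02 with a paired SE of 0.08, and it was lower in 1 pair and higher in 2. Hist1h1d, at 28.8 ± 3.81 and 21.6 ± 2.10 FPKM, was lower in all 3 pairs but not called (paired adjusted p = 0.073 in limma).

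**Figure D3:**
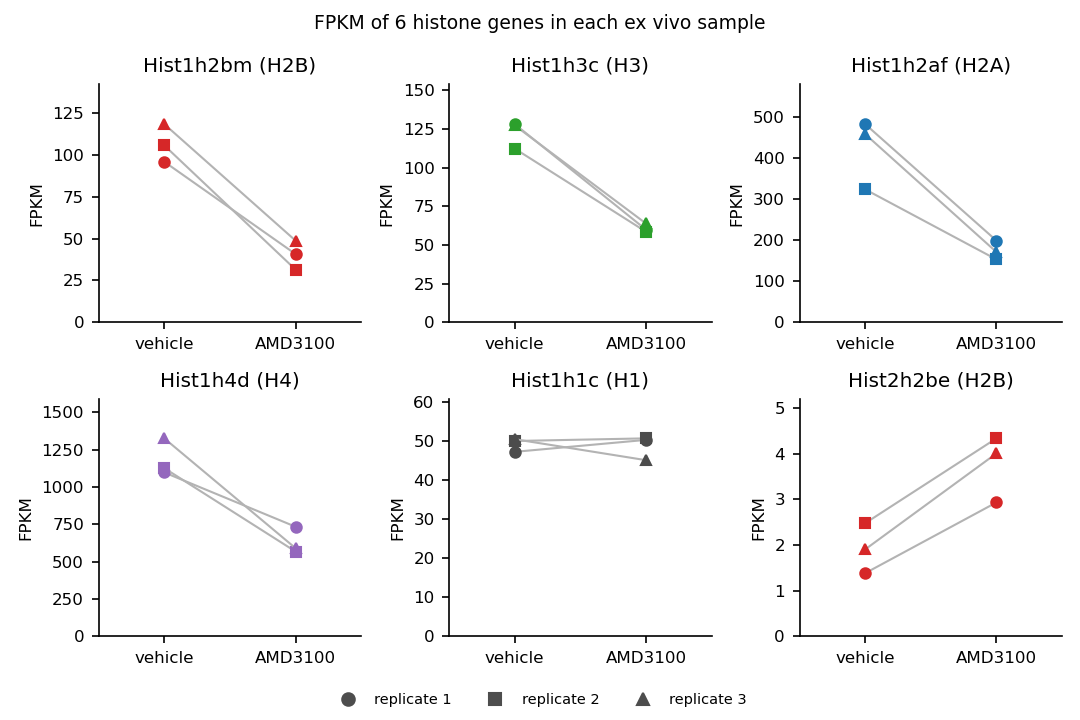
FPKM of 6 histone genes in each ex vivo sample, from 0, with lines joining samples of the same replicate number. Hist1h2bm, Hist1h3c, Hist1h2af and Hist1h4d lie lower with AMD3100 in each pair, Hist1h1c stays near 50 FPKM, and Hist2h2be lies higher in each pair from 1.38 to 2.48 FPKM with vehicle.

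The 3′ ends of the annotated transcripts were read next, because poly-A selection bears on them. The stem-loop searched for had 16 bases: a stem of 6 base pairs that starts GG and a loop of 4 bases that starts T. Only exact matches counted: the first arm had to end in T and pair with the second without mismatch. Transcripts without a match, called without a stem-loop below, may hold a stem-loop that departs from this pattern. An exact match was found in the longest GENCODE transcript of 43 of the 65 symbols. Over all 21901 protein-coding genes 144 held one in any coding transcript, not only the longest (0.658%). Of these 144 genes 46 had symbols of the Hist clusters. The 43 genes used 8 forms of the stem-loop. The commonest, in 23 genes, occurred in no H4 gene, and the second, in 7 genes, occurred in H4 genes alone. The sequences below show how near the forms are to each other, for genes with a large fall (Hist1h2bm, Hist1h3c, Hist1h4d), a small one (Hist1h4b) and none (Hist1h1c); capitals mark the 2 arms of the stem, and T stands for U of the mRNA.
Hist1h2bm: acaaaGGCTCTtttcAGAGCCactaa
Hist1h3c: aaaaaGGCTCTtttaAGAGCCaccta
Hist1h4d: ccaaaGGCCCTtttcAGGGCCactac
Hist1h4b: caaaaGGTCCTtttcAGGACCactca
Hist1h1c: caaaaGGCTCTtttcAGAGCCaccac
The stem-loop of Hist1h2bm and that of Hist1h1c are the same 16 bases, and their log2 changes were -1.40 and -0.02. The annotated transcript goes on after the stem-loop by 46 bases in Hist1h2bm, 74 in Hist1h3c, 28 in Hist1h4b, 770 in Hist1h4d and 840 in Hist1h1c. In that order the log2 changes were -1.40, -0.999, -0.29, -0.91 and -0.02. A link of the stem-loop or the transcript end with the change was not tested.

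Members whose annotated transcript ended within 100 bases after the stem-loop had a median log2 change of -0.78 (15 genes, 14 called lower with pairing). Those whose transcript went on for more than 100 bases had a median of -0.47 (18 genes, 8 called lower). Of all rows 9.92% were called lower with pairing. The genes with the smallest changes, Hist1h1c, Hist1h4i, Hist3h2a, Hist1h2ac and Hist3h2ba, all belonged to the second group, as did Hist1h4a and Hist1h4j. Hist1h4k, which came next at -0.21, and Hist1h3h, at -0.30, had no stem-loop in the annotation. Hist1h4b, at -0.29, belonged to the first group. The second group also held Hist1h4d and Hist1h3f, at -0.91 and -1.03. Of the members without a stem-loop in the annotation, 6 had a median of -0.54, and 9 whose gene model was at most 420 bases long, too short to hold much beyond the coding part, had a median of -0.60. The longer transcripts had lower levels, with a median of 27.1 FPKM against 67.8 FPKM. With the length adjustment the medians were -0.72 and -0.51, and -0.60 for the 7 genes whose transcript went on for over 800 bases, which had -0.39 without it. By length alone, the 12 members with a transcript over 1000 bases had a median of -0.59. The 36 with one of 1000 bases or less had -0.62. With the length adjustment these medians were -0.66 and -0.53. The stem-loop groups also differed in their make-up by class, which was not adjusted for. All these groups are a description of the annotation, made with the changes known. Which transcript end the reads came from was not measured, and no test was made between the groups.

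**Figure D4:**
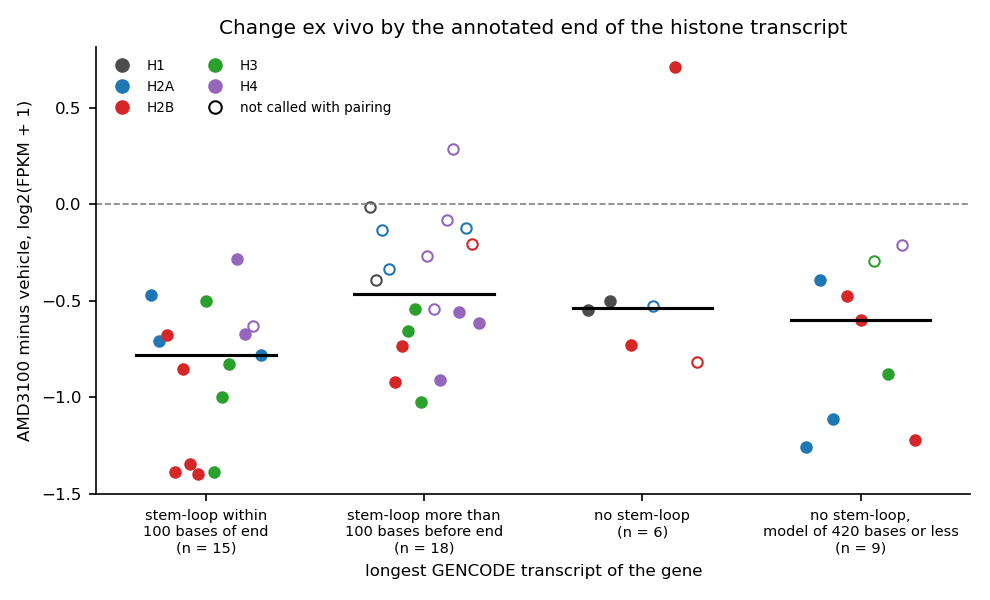
Log2 change ex vivo of the 48 single-symbol histone genes, grouped by where the stem-loop lies in the longest GENCODE transcript; bars are group medians and open circles were not called with pairing. The group with the stem-loop within 100 bases of the end has the lowest median (-0.78), and all genes between -0.30 and 0.30 but 3 have a stem-loop further from the end.

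Hist2h2be, the 1 member called higher with pairing, had no stem-loop of the searched pattern in its annotated transcript of 2620 bases. It shared no 50-base stretch with another gene. For many other members reads of 50 bases cannot be told apart from those of copies. At least 50% of the 50-base stretches of 29 symbols occurred in another gene, and 11 of these 29 were under the minimum, so their reads may have been left out or split. How the authors treated such reads is not given in the sources used here. The 18 kept members among them had a median log2 change of -0.77. Under 10% of the stretches were shared for 7 kept members (Hist1h1a, Hist1h1b, Hist1h1c, Hist1h1d, Hist2h2be, Hist2h4 and Hist4h4), with a median of -0.50. With pairing 4 of the 7 were called lower, against 9.92% of all rows.

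Promoters were compared for the 59 symbols matched in RefSeq (GRCm38.p6), over the 250 bases before the start. The octamer ATTTGCAT, searched on both strands, was present in 6 of 15 H2B promoters (40.0%) and 7 of 16 H2A promoters (43.8%), in none of H1, H3 or H4, and in 1.6% of all 32851 promoters. It is the site of the POU factor OCT1, known as a regulator of H2B genes in S phase. CCAAT occurred in 81.4% of histone promoters against 33.8% of all, and TATAAA in 49.2% against 12.4%. Each motif was counted alone, and matches may overlap. The last 120 bases before the start are shown for the 2 H2B genes with the lowest log2 change, with and without the octamer, and for Hist1h3c and Hist1h1c, which differed in their change; capitals mark the octamer and CCAAT on either strand.
Hist1h2bm, chr13:21721924-21722043, plus strand: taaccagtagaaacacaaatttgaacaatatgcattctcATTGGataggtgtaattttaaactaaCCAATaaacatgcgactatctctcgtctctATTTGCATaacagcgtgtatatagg
Hist1h2bf, chr13:23574208-23574327, minus strand: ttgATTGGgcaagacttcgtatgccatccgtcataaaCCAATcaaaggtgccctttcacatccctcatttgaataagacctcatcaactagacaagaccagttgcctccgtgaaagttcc
Hist1h3c, chr13:23745522-23745641, minus strand: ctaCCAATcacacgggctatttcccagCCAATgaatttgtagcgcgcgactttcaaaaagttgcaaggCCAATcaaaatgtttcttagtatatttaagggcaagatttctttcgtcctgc
Hist1h1c, chr13:23738687-23738806, plus strand: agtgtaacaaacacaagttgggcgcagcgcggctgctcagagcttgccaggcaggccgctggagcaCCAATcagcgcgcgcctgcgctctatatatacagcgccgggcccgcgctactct
The 5 kept H2B genes with the octamer (Hist1h2bb, Hist1h2bg, Hist1h2bk, Hist1h2bm and Hist2h2bb) had a median log2 change of -1.22, from -1.40 to -0.68. The 7 without it, the joined row among them, had a median of -0.60, from -1.39 (Hist1h2bf) to -0.20 (Hist3h2ba), so the ranges overlapped. Hist1h2bc, Hist3h2bb-ps and Hist2h2be, the member called higher with pairing, had no matched promoter and are in neither group. Their log2 changes were -0.73, -0.82 and 0.71, and whether they have the octamer was not read. No test was made between the groups.

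The list of genes that transcribe histone genes and process or degrade their mRNA had 28 kept genes, with a median log2 change of -0.11. None was called without pairing, and with pairing limma called 4 lower and 4 higher, where it called 9.92% and 9.96% of all rows. Without 1 library or pair, 0 to 1 were called, where 3 to 559 of all rows were called. Slbp, the stem-loop binding protein, was at 96.5, 96.4 and 114 FPKM with vehicle and 72.7, 79.7 and 83.7 FPKM with AMD3100, a log2 change of -0.37 (paired adjusted p = 0.028 in limma). Srrt, a partner of the nuclear cap-binding complex, fell from 124 ± 6.61 to 86.0 ± 6.21 FPKM (-0.52), and Ncbp1 of that complex and Cpsf2 of the cleavage complex fell by 0.32 and 0.29. Pou2f1, which encodes OCT1, rose from 8.16 ± 0.903 to 12.6 ± 1.40 FPKM (0.57), and Zcchc11, Pou2af1 and Xrn1 rose by 0.63, 0.42 and 0.46. Npat, the coactivator of histone gene transcription, was at 14.7 ± 0.972 and 16.1 ± 0.995 FPKM, and its partner Casp8ap2 at 26.0 ± 2.35 and 23.8 ± 1.38 FPKM. Neither was called.

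Among histone chaperones, which carry new histones to DNA, some were lower. Of 24 kept genes 6 fell and 1 rose with pairing, against 9.92% and 9.96% of all rows, none was called without it, and the median was -0.08. Without 1 library or pair, 0 to 2 were called, where 3 to 559 of all rows were called. Hat1, which acetylates new H4, fell from 96.6 ± 5.94 to 64.3 ± 2.72 FPKM (log2 change -0.58). Nasp, which binds soluble H3 and H4, fell from 111 ± 7.12 to 77.2 ± 3.10 FPKM (-0.52). Chaf1a of the replication-coupled assembly factor CAF-1, Dnajc9, Ssrp1 and Rbbp4 fell by 0.43, 0.39, 0.40 and 0.24. Cabin1, of the replication-independent HIRA complex, rose by 0.37.

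Histone genes outside the clusters, mostly have mRNAs with a poly-A tail. Of 10 kept genes 3 fell and 1 rose with pairing, against 9.92% and 9.96% of all rows, none was called without it, and the median was -0.11. Without 1 library or pair, 0 to 2 were called, where 3 to 559 of all rows were called. H2afx, which encodes the variant phosphorylated at DNA breaks, stood at 405, 428 and 337 FPKM with vehicle and at 605, 588 and 553 FPKM with AMD3100. All 3 treated samples were higher, with a log2 change of 0.58 (paired SE 0.08, paired adjusted p = 0.020 in limma; unpaired adjusted p = 0.071). It was the 1 gene of the 16 on this list with a stem-loop of the searched pattern in its annotated transcript. That transcript goes on for 822 bases after the stem-loop.
H2afx: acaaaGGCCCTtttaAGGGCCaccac
H2afv and H2afz, which encode H2A.Z, fell from 137 ± 9.32 to 91.6 ± 2.13 FPKM (log2 change -0.57) and from 25.8 ± 1.11 to 18.6 ± 3.39 FPKM (-0.47). H1f0, the linker histone of resting cells, was at 69.4, 87.2 and 15.7 FPKM with vehicle and 32.4, 43.1 and 10.8 FPKM with AMD3100, lower in each pair (paired adjusted p = 0.022 in limma). It was low in the samples numbered 3 as the stromal markers were, and the part of feeder cells in its level was not tested. H3f3a and H3f3b, which encode the replication-independent H3.3, and Cenpa, the H3 variant of centromeres, were not called, with log2 changes of 0.21, -0.11 and -0.20.

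Genes of DNA replication and nucleotide supply stood lower with the histone genes. Of 46 genes on this list 38 fell and none rose with pairing, against 9.92% and 9.96% of all rows, none was called without it, and the median was -0.50. With 1 library or pair left out, 0 to 13 were called, where 3 to 559 of all rows were called. Their summed FPKM was 4658, 4357 and 4696 with vehicle and 3351, 3353 and 3161 with AMD3100, 28.0% lower, against 42.3% for the histone genes. Pcna, the clamp of the replication fork, fell from 230 ± 13.4 to 133 ± 9.65 FPKM (log2 change -0.79), and Cdc6, which loads the replicative helicase, fell by 0.73. No test of the difference between both lists was made.

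In the primary tumours no histone gene was called between genotypes, at an adjusted p under 0.05 in limma, where 0.0372% of all rows were called. At an unadjusted p under 0.05 there was 1 member higher and none lower, against 2.26% and 2.02% of all rows. For no member did the groups fail to overlap, which happened for 5.2% of all rows in the lower and 4.01% in the higher direction. Of the 50 members 41 had a log2 change below 0, with a median of -0.65 against -0.03 over all rows. This median rested on single tumours. It was -0.03 without knockout tumour 8 and -0.01 without wild-type tumour 4, but -1.50 without knockout tumour 5 and -1.48 without wild-type tumour 1.

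Tumours of 1 genotype differed from each other more than the genotypes did. The summed histone FPKM was 744, 3044 and 6011 in wild-type tumours 1, 2 and 4 and 6026, 942 and 1630 in knockout tumours 5, 7 and 8. Each genotype thus held a tumour with a high sum (4 and 5) and a tumour with a low one (1 and 7). Hist1h4d, the most abundant member on average, was at 136, 432 and 798 FPKM in the wild type and 609, 170 and 295 FPKM in the knockout (log2 change -0.20, SE 0.73). Hist2h2bb was at 81.7, 376 and 636 FPKM in the wild type and 673, 57.5 and 168 FPKM in the knockout (log2 change -0.53, SE 1.03). Hist1h3c and Hist1h2bm had log2 changes of -1.62 (SE 1.68) and -1.54 (SE 1.75), both listed at 0 in knockout tumour 8.

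Other lists went up and down over the 6 tumours with the histone genes. The S phase list summed to 1218, 4082 and 4978 FPKM in the wild type and 4426, 1253 and 1676 FPKM in the knockout. Erythroid markers summed to 3553, 17454 and 103017 FPKM in the wild type and to 87673, 8565 and 18157 FPKM in the knockout. T cell markers ran roughly the other way, at 6611, 1678 and 1958 FPKM and 2081, 4281 and 3530 FPKM. Neutrophil markers reached 3082 FPKM in wild-type tumour 2 and at most 315 FPKM in the others. The part of these cells in the histone levels was not tested. Within a tumour, the erythroid and histone values come from the same library and its scaling.

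**Figure D5:**
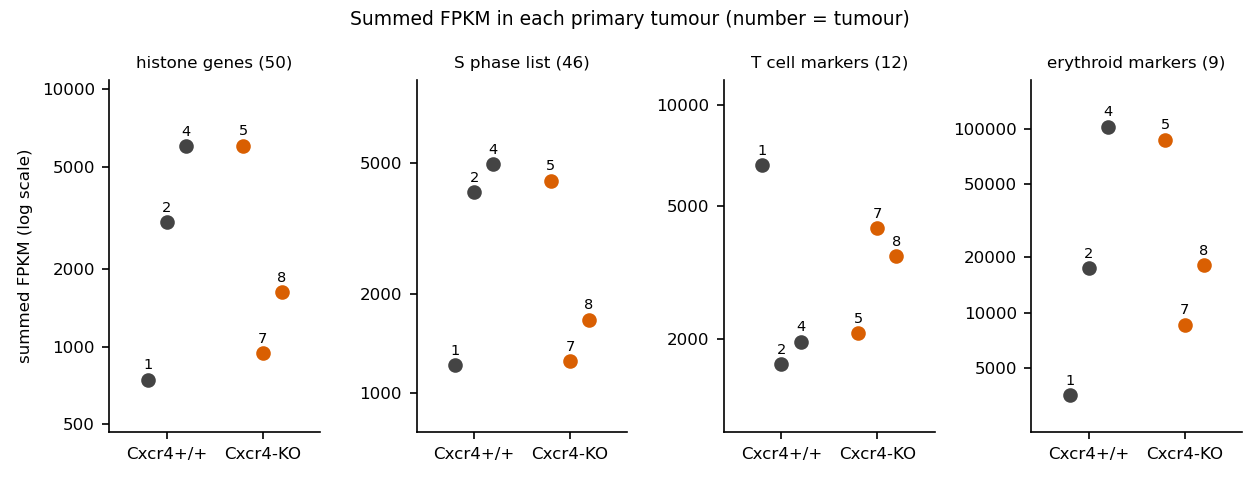
Summed FPKM on a log scale in each primary tumour, numbered as in the study, for the 50 histone genes, the 46 genes of the S phase list, T cell markers and erythroid markers. Wild-type tumour 4 and knockout tumour 5 are highest and wild-type tumour 1 and knockout tumour 7 lowest for the histone genes, from 744 to 6026 FPKM, and T cell markers are highest in tumour 1 and lowest in tumour 2.

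Values of 0 weigh on these tumours. Of the 50 members 6, 1 and 0 were listed at 0 in wild-type tumours 1, 2 and 4, and 1, 7 and 24 in knockout tumours 5, 7 and 8. Knockout tumour 8 had 13231 of all rows at 0, against 10423 to 11433 in the others. Among the members listed at 0 there was Hist1h2an, at 9.72, 29.3 and 62.7 FPKM in the wild type and 43.4, 5.92 and 0 FPKM in the knockout. The median change by class was -0.26 for H1, -0.48 for H2A, -1.12 for H2B, -0.77 for H3 and -0.56 for H4, and no class had a call.

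The member with an unadjusted p under 0.05 was Hist1h4c. It was listed at 0, 0 and 25.6 FPKM in wild-type tumours 1, 2 and 4 and at 21.0, 20.2 and 58.5 FPKM in knockout tumours 5, 7 and 8, 3.34 higher in the knockout on the log2 scale (SE 1.26) but without a call (adjusted p = 0.986 in limma). The groups overlapped, and ex vivo limma did not call this gene either (-0.54). Hist1h1c was at 22.8, 47.6 and 89.2 FPKM in the wild type and 113, 17.4 and 35.1 FPKM in the knockout, a log2 change of -0.15 (SE 0.74). None of the 4 other lists had a called gene in the tumours. Slbp was at 51.0, 153 and 220 FPKM in the wild type and 206, 64.3 and 71.1 FPKM in the knockout, lowest in tumours 1 and 7 as the histone genes were. H2afx, higher with AMD3100 ex vivo, was at 92.4, 129 and 247 FPKM and at 268, 77.7 and 142 FPKM, a log2 change of 0.00 (SE 0.54). Npat spread less, from 9.14 to 19.2 FPKM over the 6 tumours.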

How the data were processed

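RNA was measured in 12 libraries of poly-A-selected RNA, strand-specific (dUTP) with single reads of 50 bases, per the labels' protocols. The authors deposited FPKM values in 2 tables of 6 samples, which were fitted separately. CASAVA, TopHat and the mm9 build are named in the submitters' processing notes, without versions. Which program and annotation gave the FPKM values, and how strand was used, is not given in the sources used here. All columns matched a sample by name. A listed 0 can come from a failed estimate, and since read totals are unknown no counting intervals are given.

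Rows with a mean FPKM of 1 or more were tested on log2(FPKM + 1) with limma 3.58.1 in R 4.3.3 (mean trend, two-sided, Benjamini-Hochberg over all kept rows, call at an adjusted p under 0.05). An exact permutation test of 3 against 3 samples cannot go below p = 0.1. Scripts were tested on simulated data. Same-numbered ex vivo samples had correlations of 0.467, 0.579 and 0.619 in their deviations from the group means, all above 0.1, so a paired fit (replicate number as block) is given beside the unpaired one. The pairing comes from the shared numbers in the labels and these values. Differently numbered ex vivo samples had correlations of -0.473 to 0.0455. By the same measure wild-type tumour 4 and knockout tumour 5, which share no number, reached 0.534, and tumours 1 and 7 reached 0.505. A value above 0.1 thus does not by itself show a shared animal or culture. The members, the 4 other lists, the 6 marker lists and the rule for named genes were chosen with earlier results of these data known. Named were called members, the 2 most abundant and the 2 lowest and 2 highest log2 changes of each class, the 3 smallest p of each list, and fixed genes such as Slbp and H2afx; not all of them are printed. Hist1h2bj, Hist1h2bk and other members named for contrast were chosen after their values were seen.

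Stem-loops and shared 50-base stretches were read from GENCODE M21 transcripts (GRCm38) and promoters from RefSeq (GRCm38.p6), not from the authors' annotation. Alternatives were other pseudocounts (0.1, 0.5), filters (0.1, 5, none), median-of-ratios, TMM and quantile scaling, no mean trend, an adjusted p under 0.10, leaving out libraries or pairs, and a correction for transcript length.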

Additional observations from a re-analysis of the deposited data

How the results depend on the processing

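Without pairing, the 2 called histone genes became 15 with a filter at 5 FPKM and 23 at an adjusted p under 0.10, while calls over all rows went from 13 of 10245 to 188 of 8299 and 847 of 10245. They became 1 with a filter at 0.1 FPKM or quantile normalisation and 0 without a mean trend. Over all rows 10, 3 and 1 were called in these 3 fits. With the replicate block the count was 34, and it stayed between 30 and 34 with that block and other settings: 34 with median-of-ratios scaling or a pseudocount of 0.1, 33 with TMM scaling or the length correction, 32 with the 5 FPKM filter and 30 with quantile normalisation. Over all rows these paired fits called 1641 of 9646 (length correction) to 2108 of 8299 (5 FPKM filter). Leaving out a library or pair gave 0 to 16, where 3 to 559 of all rows were called. The median change of the members ran from -0.67 to -0.50 over these. With no filter the median was -0.48, taken over all 67 histone rows, those under the minimum or at 0 included.

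The 4 other lists had no call without pairing. At an adjusted p under 0.10 their counts were 3 (mRNA processing), 5 (chaperones), 2 (variants) and 27 (S phase), beside the 847 of 10245 rows, and with the 5 FPKM filter 0, 2, 1 and 11. The S phase list had 2 calls with no filter and 1 with TMM scaling. With the replicate block they were 8, 7, 4 and 38, beside 2036 of 10245 rows. Over the other paired settings they were 5 to 9 (5 with the length correction, 9 with the 5 FPKM filter, otherwise 8), 5 to 7 (6 with median-of-ratios or TMM scaling, 5 with quantile normalisation), 3 to 5 (3 with the length correction, 5 with quantile normalisation) and 34 to 38 (34 with quantile normalisation). Over all rows the paired length correction called 1641 of 9646 and the paired 5 FPKM filter 2108 of 8299. The remaining paired settings called 1914 to 2040 of 10245. Leaving out a library or pair gave 0 to 1, 0 to 2, 0 to 2 and 0 to 13 calls, where 3 to 559 of all rows were called.

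Of 1344 values of single genes ex vivo 15 changed sign, in 6 genes. Hist1h1c was at 0.011 with quantile normalisation, paired or not. Over the fits that left out a library or pair, Hist1h1c ran from -0.070 to 0.054, Hist1h4a from -0.78 to 0.24, Hist1h4i from -0.24 to 0.11, Hist1h4j from -0.029 to 0.65, Hist2h2ab from -1.02 to 0.096 and Hist3h2ba from -0.55 to 0.13. In the tumours no setting called a histone gene, and leaving out 1 tumour turned 12 of the 17 genes checked. Hist1h4d ran from -0.91 to 0.37, Hist2h4 from -0.84 to 0.98, Hist2h2bb from -1.45 to 0.32, Hist1h2af from -1.22 to 0.45, Hist1h2bm from -3.10 to 0.21 and Hist1h3c from -3.17 to 0.36. Hist1h1a ran from -1.45 to 0.16, Hist1h1c from -0.87 to 0.45, Hist1h2ak from -0.52 to 1.25, Hist1h3i from -0.20 to 1.15, Slbp from -0.90 to 0.15 and H2afx from -0.45 to 0.44. H2afx was also at -0.00644 with median-of-ratios and -0.0179 with TMM scaling. The cause of these changes was not tested. In the tumours 3 samples a group and their spread limit what can be detected.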
